A study of Mus musculus with 15 samples.

Results

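The genes described here are 6 matrix metalloproteinases, Mmp2, Mmp3, Mmp9, Mmp13, Mmp14 and Mmp15, and the 4 tissue inhibitors of metalloproteinases, Timp1, Timp2, Timp3 and Timp4. They were found by their symbols in the gene name column of the array files, which gave 13 probes for the 10 genes among 41174 distinct probes with 27845 gene names. All 13 probes were bright enough to be tested, as were 27593 probes in the series. Whole-heart RNA was measured for 5 rosiglitazone-treated db/db mice, 5 untreated db/db mice and 5 db/+ littermates, each heart on its own array. The db/db mouse is homozygous for a leptin receptor mutation on the C57BL/KLS background and becomes obese and diabetic. The db/+ mouse carries 1 mutant copy and served as the nondiabetic control. Treated mice had rosiglitazone, an agonist of the nuclear receptor PPARγ, mixed into their chow at 5 mg/kg per day for 4 months, and the other mice had chow without the drug. No db/+ mouse was treated, so an effect of the drug in nondiabetic hearts was not measured, and the age at the start is not given in the sources used here.

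Matrix metalloproteinases are zinc-dependent proteases that cut collagens, proteoglycans and other proteins of the extracellular matrix. Most are secreted as inactive proenzymes and are switched on by other proteases, and the membrane-type members sit on the cell surface. The 4 inhibitors bind the active site of the enzymes and block it. In the heart the enzymes and inhibitors are known for matrix turnover after infarction and in pressure overload, and transcript levels such as those measured here do not give enzyme activity.

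Each value is a log2 ratio of heart RNA over a common mouse reference RNA, so a ratio of 0 means equal signal in both channels, and ratios of different probes are not compared. The heart signal was well above background, as the scanner software marks it, for 66.4 to 71.7% of probes on the treated arrays, 61.4 to 75.6% on the untreated arrays and 56.4 to 71.6% on the db/+ arrays. The arrays of treated replicates 3 and 4 were closer to each other than any other pair within a group: the spread of their log2 heart differences was 0.142, against 0.268 to 0.622 for the other 29 pairs. They were therefore averaged and counted as 1 sample, which left 14 samples. The arrays lay on 4 slides. Only 1 slide held untreated db/db with db/+ hearts (3 against 1), only 1 held treated with untreated db/db hearts (2 against 2), and none held treated db/db with db/+ hearts. Markers of heart muscle were bright in every group, with the heart signal of all 7 genes above background. Their mean log2 ratio nevertheless varied among hearts of a group. It ran between 5.61 and 6.10 in treated, 4.17 and 6.40 in untreated db/db and 3.72 and 6.84 in db/+ hearts. Liver-type transcripts differed among hearts of the same group: the mean log2 ratio of 3 tested hepatocyte markers ran between 0.81 and 4.21 in treated, 2.68 and 5.67 in untreated db/db hearts, and -0.34 and 2.75 in db/+ hearts, and their part in the results below was not tested.

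Mmp3 was higher and Mmp13 was lower in diabetic hearts, with or without rosiglitazone, and no other member passed the test in any comparison. Between untreated db/db and db/+ hearts, 1 of the 10 genes rose and 1 fell at an adjusted p under 0.05 (limma, Benjamini-Hochberg over all probes tested). The background was 7.76% of all tested probes, 4.37% higher and 3.39% lower. Between treated db/db and db/+ hearts the counts for the members were again 1 higher and 1 lower, where 8.7% of all probes passed, 4.49% upward and 4.21% downward. Between the treated and the untreated db/db hearts no member passed, and neither did any probe on the array (0% called, lowest adjusted p = 0.083). That count over all probes was 14 without untreated db/db replicate 4, 3 with SAM and 115 with the heart channel alone. At an unadjusted p under 0.05 the members numbered 6 in untreated db/db against db/+ (25.5% of all probes), 6 in treated db/db against db/+ (26.8%) and 1 in treated against untreated db/db (8.78%). The median log2 difference over the 10 genes was 0.23 in untreated db/db and 0.15 in treated db/db hearts against db/+, and -0.01 between treated and untreated db/db hearts, where the medians of all tested probes were 0.01, 0.01 and -0.01. The 2 comparisons with db/+ hearts share those control samples.

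**Figure D1:**
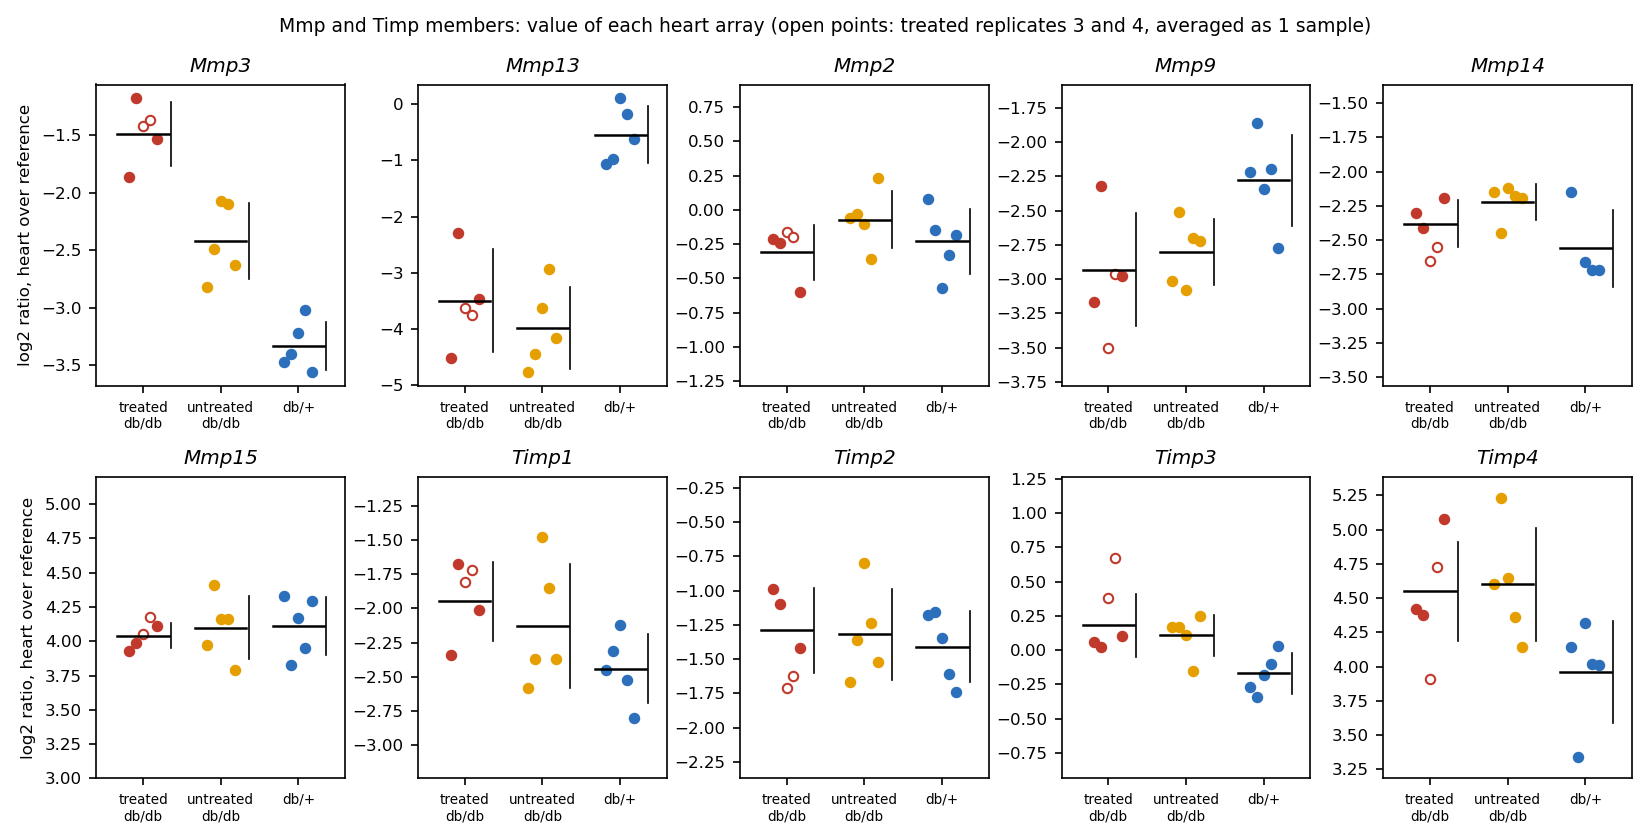
Log2 ratio of heart over reference RNA (y axis, scale differs by panel) for each member gene on each array, by group; the horizontal line is the group mean and the vertical line beside it ± 1 SD, and open points are treated replicates 3 and 4, averaged as 1 sample. The groups do not overlap for Mmp3, the 5 db/+ hearts lie above all db/db hearts for Mmp13, and the groups overlap for the other 8 genes.

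Mmp3 encodes stromelysin-1, which cuts proteoglycans, fibronectin and laminin and activates other metalloproteinase proenzymes. It was read by 1 probe of 60 bases (A_51_P255699, chr9:7455751-7455810 on mm8), whose first 30 bases are printed to identify the transcript stretch that was measured.
Mmp3 probe: ctttgtgaaaggaagtgctttgttcagcat
The log2 ratios were -1.86, -1.18, -1.42, -1.37 and -1.53 in treated db/db replicates 1 to 5. In untreated db/db hearts they were -2.82, -2.49, -2.07, -2.10 and -2.63, and in db/+ hearts -3.47, -3.40, -3.22, -3.02 and -3.56. Every treated heart was above every untreated db/db heart, and every untreated db/db heart above every db/+ heart. The group means were -1.49 ± 0.28 (SD, n = 4) in treated db/db, -2.42 ± 0.33 (n = 5) in untreated db/db and -3.33 ± 0.21 (n = 5) in db/+ hearts. Groups without overlap were found for 7.81% of all tested probes in untreated db/db against db/+, 14.6% in treated db/db against db/+ and 4.58% in treated against untreated db/db.

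Mmp3 rose 1.88-fold in untreated db/db against db/+ hearts (log2 difference 0.91, standard error 0.17, limma adjusted p = 0.0067). In treated db/db hearts it rose 3.58-fold over db/+ (log2 difference 1.84, standard error 0.18, adjusted p = 7.2e-05). Treated against untreated db/db hearts differed by 0.93 on the log2 scale (standard error 0.18, 95% interval 0.55 to 1.31), with an unadjusted p of 1.5e-04 that ranked 11 among all tested probes but an adjusted p = 0.32. Within the slide shared by untreated db/db and db/+ hearts the difference was 1.09, and within the slide shared by treated and untreated db/db hearts it was 0.84. With slide as a fixed block the adjusted p was 0.36 in untreated db/db and 0.38 in treated db/db against db/+. After normexp background correction and loess the log2 differences were 0.12 (adjusted p = 0.8) and 1.01 (adjusted p = 0.088) against db/+. The SD of all log2 ratios was then 0.626 to 0.653 on db/+ replicates 1 and 3. On the other 13 arrays it was 0.981 to 1.21, and the part of this in the normexp results was not tested.

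Macrophages and fibroblasts are known sources of stromelysin-1. Of 7 macrophage markers tested none passed in any comparison, and their mean log2 ratio ran between 2.35 and 2.6 in treated, 2.01 and 2.79 in untreated db/db and 2.2 and 2.88 in db/+ hearts. None of 6 fibroblast markers passed either, with means between 1.25 and 1.72 in treated, 1.61 and 2.18 in untreated db/db and 1.5 and 2.41 in db/+ hearts. In whole-heart RNA, a change in the number of cells of a type and a change in RNA per cell cannot be told apart. The part of macrophages and fibroblasts in the rise of Mmp3 was not tested.

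Mmp13 encodes collagenase-3, the main interstitial collagenase of rodents, which cuts fibrillar collagen. It too was read by 1 probe of 60 bases (A_51_P184484, chr9:7282762-7282821 on mm8), which starts as follows.
Mmp13 probe: tcattactcaaggctatgcacactggtaga
The log2 ratios were -4.53, -2.30, -3.63, -3.75 and -3.47 in treated db/db hearts. Untreated db/db hearts had -4.78, -4.46, -3.63, -2.93 and -4.16, and db/+ hearts -1.07, -0.98, 0.11, -0.17 and -0.61. All db/+ hearts lay above all db/db hearts, and the treated and untreated db/db groups overlapped over most of their range. The means were -3.50 ± 0.92 (n = 4) in treated db/db, -3.99 ± 0.73 (n = 5) in untreated db/db and -0.54 ± 0.51 (n = 5) in db/+ hearts.

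Mmp13 fell 10.9-fold in untreated db/db hearts against db/+ (log2 difference -3.45, standard error 0.41, adjusted p = 3.8e-04). In treated db/db hearts it was 7.75-fold lower than in db/+ hearts (log2 difference -2.95, standard error 0.44, adjusted p = 0.0017). Treated and untreated db/db hearts differed by 0.50 (95% interval -0.45 to 1.44, adjusted p = 0.82). The within-slide values were -3.68 for untreated db/db against db/+ and 0.13 for treated against untreated db/db, and with slide as a fixed block the adjusted p against db/+ was 0.16 in untreated and 0.61 in treated db/db hearts. The heart signal was well above background on 4 of 5 treated, 3 of 5 untreated and 5 of 5 db/+ arrays, so the size of the fall rests in part on dim spots. After normexp and loess the log2 difference from db/+ was -1.34 in treated and -1.83 in untreated db/db hearts, past the threshold in both.

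The 2 channels show where these ratios came from. The signals of a channel also carry the brightness of each array. The median heart signal over all probes was 229 to 302 on treated, 184 to 247 on untreated db/db and 158 to 253 on db/+ arrays. For Mmp13 the heart signal, in arbitrary units, was 41.7 to 251 on treated, 34.6 to 139 on untreated db/db and 402 to 956 on db/+ arrays, while the reference signal stayed at 817 to 1230, 814 to 1060 and 674 to 1070 on the same groups of arrays. For Mmp3 the heart signal was 3180 to 6450 on treated, 1430 to 2790 on untreated db/db and 858 to 1660 on db/+ arrays, and the reference signal 11600 to 14600, 10100 to 12000 and 8020 to 13500. The heart channel of Mmp3 thus overlapped between untreated db/db and db/+ arrays before it was divided by the reference. No member probe was saturated in either channel on any array. With the heart channel alone, quantile normalized, Mmp3 differed by 0.89 (adjusted p = 0.012) in untreated db/db against db/+, by 1.90 (adjusted p = 6.3e-05) in treated db/db against db/+ and by 1.01 (adjusted p = 0.044) in treated against untreated db/db hearts.

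**Figure D2:**
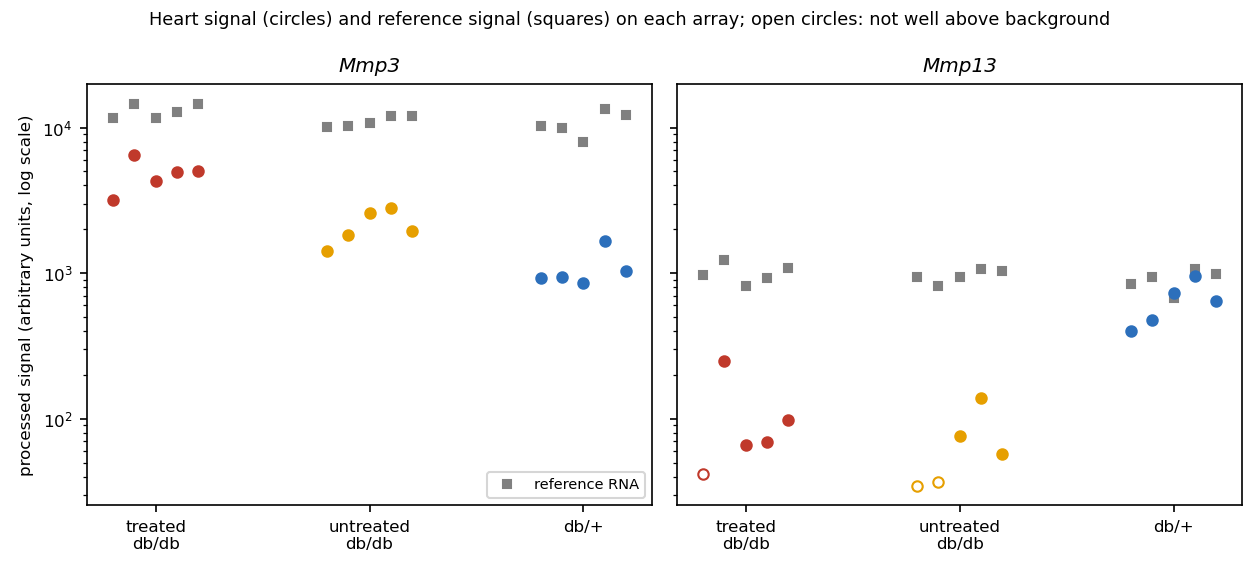
Processed signal (y axis, arbitrary units, log scale) of the heart RNA (circles) and the reference RNA (grey squares) for Mmp3 and Mmp13 on each array, by group; open circles are spots not well above background. The heart signal of Mmp13 is 34.6 to 139 on untreated db/db arrays and 402 to 956 on db/+ arrays, with the reference signals of the groups overlapping.

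Some lymphocyte markers fell with Mmp13 and others did not. Against db/+ hearts, the B cell antigen Ms4a1 fell, with log2 differences of -1.79 (adjusted p = 6.8e-04) in treated and -1.94 (adjusted p = 2.8e-04) in untreated db/db hearts. The T cell gene Cd3d fell by 1.07 in treated hearts (adjusted p = 0.04), with -0.81 in untreated (adjusted p = 0.09). Cd3e, Cd8a and the B cell gene Cd79a did not pass. Cd3e differed by -0.16 and -0.07, Cd8a by -0.23 and 0.31, and Cd79a by 0.56 and 0.09. The mean log2 ratio of the 6 markers listed ran between -1.26 and -0.98 in treated, -1.37 and -0.72 in untreated db/db and -0.80 and -0.38 in db/+ hearts, and every lymphocyte marker was above background on at least 1 array of each group. The part of lymphocytes in the fall of Mmp13 was not tested.

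The promoters of Mmp3 and Mmp13 are printed because these 2 genes of 1 cluster moved in opposite directions and transcription of both is known to depend on AP-1, the Fos and Jun dimer. Each run gives the 250 bases before the annotated start, 5′ to 3′ on the plus strand of GRCm38.p6 (RefSeq), with the AP-1 motif TGAGTCA or its reverse complement TGACTCA in capitals.
Mmp3 promoter, chr9:7445572-7445821: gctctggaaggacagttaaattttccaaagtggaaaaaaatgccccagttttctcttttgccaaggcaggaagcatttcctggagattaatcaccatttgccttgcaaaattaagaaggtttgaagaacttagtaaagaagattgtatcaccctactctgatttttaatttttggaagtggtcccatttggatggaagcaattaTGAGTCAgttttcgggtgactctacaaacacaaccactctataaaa
Mmp13 promoter, chr9:7272264-7272513: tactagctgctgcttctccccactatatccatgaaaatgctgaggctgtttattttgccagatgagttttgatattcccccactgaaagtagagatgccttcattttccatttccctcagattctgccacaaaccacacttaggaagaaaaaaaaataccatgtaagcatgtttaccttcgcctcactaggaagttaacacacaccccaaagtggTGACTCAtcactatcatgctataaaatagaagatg
The motif lies 46 to 40 bases before the annotated start in Mmp3, and 35 to 29 bases before it, on the other strand, in Mmp13. Of the 10 members, 8 matched a promoter in the RefSeq table, and Mmp2 and Mmp9 are named only. Mmp3 and Mmp13 were the 2 of 8 with the AP-1 motif on either strand, which 4.46% of 32851 promoter windows of 250 bases hold, and also the 2 with TATAAA on either strand (12.4% of all windows). The ETS motif AGGAAG, on either strand, was found in 6 of 8 (29.5% of all windows), namely Mmp3, Mmp13, Mmp14, Timp1, Timp3 and Timp4, and none of the 3 motifs overlapped another in Mmp3 or Mmp13. A match describes the letters only.

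Among 12 tested AP-1 and ETS family factors, 1 passed in each comparison with db/+ hearts. Of all tested probes 8.7% passed in treated and 7.76% in untreated db/db against db/+ hearts. Ets1, a transcription factor of endothelial and lymphoid cells, fell by 0.67 on the log2 scale in treated db/db (adjusted p = 3.9e-04) and by 0.62 in untreated db/db hearts (adjusted p = 4.9e-04). Its log2 ratios ran between 0.13 and 0.28 in treated, 0.15 and 0.46 in untreated db/db and 0.84 and 1.0 in db/+ hearts, without overlap between the db/db groups and db/+. Such a lack of overlap with db/+ was found for 14.6% of all tested probes in treated and 7.81% in untreated db/db hearts. Fos differed from db/+ by 0.85 in treated (adjusted p = 0.46) and 1.32 in untreated db/db hearts (adjusted p = 0.22), and Jun by 0.34 (adjusted p = 0.17) and -0.08 (adjusted p = 0.76).

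Mmp3 and Mmp13 lie in a cluster of 10 metalloproteinase genes on chromosome 9, their starts 173 kb apart on GRCm38.p6. Only 3 of the 10 were tested. The third, Mmp8, encodes the neutrophil collagenase and is no member of the set. Its log2 ratios were 0.89, 3.06, -0.02, 0.74 and 1.04 in treated db/db, 1.02, 1.76, 1.21, 0.89 and 0.42 in untreated db/db, and -1.60, -0.73, -1.52, -2.39 and -1.43 in db/+ hearts. All db/db hearts were above all db/+ hearts, although Mmp8 cleared background on only 1 of the 5 db/+ arrays. Mmp8 was thus bright enough to be tested through the db/db arrays alone. The log2 differences from db/+ were 2.88 (standard error 0.47, adjusted p = 0.0033) in treated and 2.6 (standard error 0.44, adjusted p = 0.0042) in untreated db/db hearts, and 0.28 (adjusted p = 0.93) between treated and untreated db/db. Without treated replicate 2, whose heart signal was 627 against 68.3 to 128 on the other treated arrays, the last difference was -0.30. That replicate was also the highest treated array for Mmp3, Mmp9, Mmp13 and Timp1, but not for Mmp2, Mmp14, Mmp15, Timp2, Timp3 and Timp4 at their brightest probes. After normexp and loess Mmp8 differed from db/+ by 0.64 (adjusted p = 0.13) in treated and 0.41 (adjusted p = 0.24) in untreated db/db hearts, and with slide as a block its adjusted p was 0.41 and 0.27.

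Of 10 neutrophil markers on the array 6 were tested, of which 1 passed in treated db/db against db/+ hearts and none in untreated db/db hearts. The share over all tested probes was 8.7% in treated and 7.76% in untreated db/db against db/+ hearts. The marker that passed was the granule protein Ltf (log2 difference 2.18, adjusted p = 0.049), which was well above background on 5 of 5 treated, 2 of 5 untreated and 1 of 5 db/+ arrays. Ltf was bright enough to be tested through the treated arrays alone, and it counts in the mean of the 6 below. Treated replicate 2 stood apart at a log2 ratio of 4.37, against 1.44 to 2.65 on the other treated arrays, and without it the difference was 1.55 (adjusted p = 0.13), a check chosen after seeing the data. The mean log2 ratio of the 6 ran between 2.25 and 4.15 in treated, 1.79 and 3.02 in untreated db/db and 1.19 and 2.05 in db/+ hearts. Of the 10, 1 was above background on no treated array, 1 on no untreated db/db array and 3 on no db/+ array, and the part of neutrophils in the rise of Mmp8 was not tested.

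**Figure D3:**
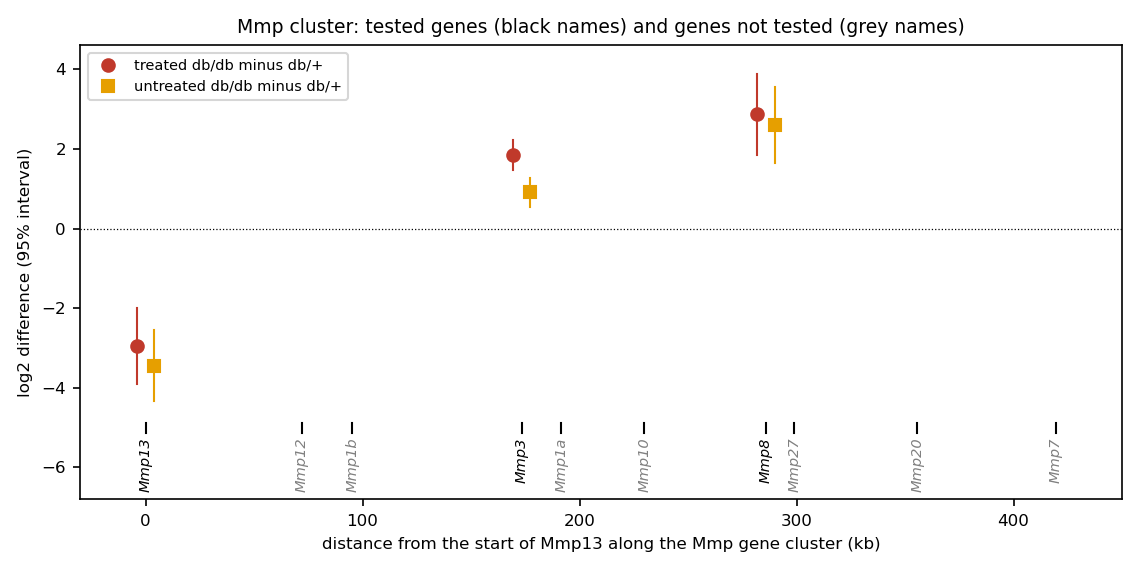
Log2 difference from db/+ hearts with its 95% interval (y axis) for treated db/db (red circles) and untreated db/db hearts (orange squares), by distance of each gene's start from that of Mmp13 along the cluster (x axis, kb); genes named in grey were not tested. Mmp13 lies at -2.95 and -3.45, Mmp3 at 1.84 and 0.91 and Mmp8 at 2.88 and 2.6.

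Mmp2 and Mmp9 encode the gelatinases, which cut denatured collagen and the type IV collagen of basement membranes. The log2 ratios of Mmp2 were -0.21, -0.24, -0.16, -0.20 and -0.60 in treated db/db, -0.06, -0.03, -0.10, -0.36 and 0.23 in untreated db/db, and 0.08, -0.15, -0.57, -0.33 and -0.18 in db/+ hearts. The groups overlapped, and the differences were -0.07 (95% interval -0.39 to 0.24) in treated and 0.17 (-0.13 to 0.46) in untreated db/db against db/+. Mmp9, which neutrophils and macrophages also make, had log2 ratios of -3.17, -2.32, -3.50, -2.96 and -2.98 in treated db/db, -3.01, -2.51, -3.08, -2.70 and -2.72 in untreated db/db, and -2.22, -1.86, -2.34, -2.2 and -2.77 in db/+ hearts at its brighter probe. It differed from db/+ by -0.65 in treated (adjusted p = 0.067) and by -0.52 in untreated db/db hearts (adjusted p = 0.11), with overlap in each case. The other Mmp9 probe, spotted 10 times on each array, gave -0.30 (adjusted p = 0.29) and -0.39 (adjusted p = 0.15). Within the shared slide the brighter probe differed by -0.10 between untreated db/db and db/+. Mmp9 passed in treated db/db against db/+ without treated replicate 2 (-0.85, adjusted p = 0.025) or without db/+ replicate 5 (-0.77, adjusted p = 0.034). It also passed there under 5 other settings, with adjusted p between 0.016 and 0.047, and in untreated db/db hearts after normexp and loess (-0.94, adjusted p = 0.043) and with slide as a random block (-0.58, adjusted p = 0.036).

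Mmp14 and Mmp15 encode membrane-type enzymes, of which Mmp14 is known to activate the Mmp2 proenzyme on the cell surface. The brighter Mmp14 probe had log2 ratios of -2.30, -2.41, -2.65, -2.55 and -2.19 in treated db/db, -2.15, -2.45, -2.12, -2.18 and -2.19 in untreated db/db, and -2.15, -2.66, -2.72 and -2.72 in db/+ replicates 1, 3, 4 and 5. The spots of db/+ replicate 2 were marked as outliers at both probes and left out of the fit. The difference from db/+ was 0.19 (adjusted p = 0.43) in treated and 0.34 (adjusted p = 0.13) in untreated db/db hearts, and at the dimmer probe 0.66 (adjusted p = 0.095) and 0.45 (adjusted p = 0.22). With the marked spots kept, at -1.77 and -0.42, the brighter probe differed by 0.03 in treated and 0.18 in untreated db/db hearts, and the dimmer probe by 0.30 and 0.09. Without db/+ replicate 1 the brighter probe differed by 0.48 in untreated db/db hearts (adjusted p = 0.023). Mmp15 had log2 ratios of 3.93, 3.99, 4.05, 4.18 and 4.11 in treated db/db, 3.97, 4.41, 4.16, 4.16 and 3.79 in untreated db/db, and 4.33, 3.83, 4.17, 3.95 and 4.29 in db/+ hearts. Its intervals against db/+ were narrow, -0.37 to 0.21 in treated and -0.29 to 0.25 in untreated db/db hearts. After normexp and loess, however, Mmp15 differed by 1.02 (adjusted p = 0.21) and 1.26 (adjusted p = 0.096).

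All 4 inhibitors had positive log2 differences from db/+ in both db/db groups, between 0.11 and 0.58 in treated and 0.09 and 0.63 in untreated db/db hearts, and none of them passed the test. The median of the 4 was 0.42 in treated and 0.30 in untreated db/db hearts, where the median of all probes was 0.01 in each. Timp4, the inhibitor known for its expression in heart muscle, had log2 ratios of 4.42, 4.38, 3.91, 4.73 and 5.08 in treated db/db, 4.6, 5.23, 4.65, 4.36 and 4.14 in untreated db/db, and 4.14, 3.34, 4.32, 4.02 and 4.01 in db/+ hearts. The groups overlapped, and the differences from db/+ were 0.58 (standard error 0.24, adjusted p = 0.14) in treated and 0.63 (standard error 0.23, adjusted p = 0.098) in untreated db/db hearts. With the heart channel alone Timp4 passed, at 1.29 (adjusted p = 0.0030) in treated and 1.23 (adjusted p = 0.0031) in untreated db/db hearts. The reference signal at its probe also ran lower on db/+ arrays, at 220 to 629. It was 560 to 1070 on treated and 296 to 1030 on untreated db/db arrays. Timp4 also passed after normexp and loess, at 1.95 (adjusted p = 0.039) and 2.03 (adjusted p = 0.02). In that setting the log2 ratios of db/+ replicates 1 and 3 had a narrower spread than those of the other arrays.

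Timp3, which is bound to the matrix, had log2 ratios of 0.06, 0.02, 0.38, 0.67 and 0.10 in treated db/db, 0.17, 0.17, 0.11, -0.15 and 0.25 in untreated db/db, and -0.27, -0.34, -0.18, -0.10 and 0.03 in db/+ hearts. Treated db/db and db/+ hearts came close to separating, while untreated db/db hearts overlapped both groups. The difference from db/+ was 0.35 (adjusted p = 0.091) in treated and 0.28 (adjusted p = 0.15) in untreated db/db hearts. The averaged treated replicates 3 and 4, at 0.52, stood above the next treated value of 0.10. Timp3 passed in treated db/db hearts with slide as a random block (0.35, adjusted p = 0.044) and with replicates 3 and 4 separate (0.42, adjusted p = 0.043). Timp1, which is induced in inflammation and fibrosis, ran between -2.34 and -1.68 in treated, -2.58 and -1.48 in untreated db/db and -2.80 and -2.12 in db/+ hearts. Its brighter probe differed from db/+ by 0.49 (adjusted p = 0.17) and 0.31 (adjusted p = 0.37), and its dimmer probe by 0.50 (adjusted p = 0.12) and 0.33 (adjusted p = 0.27). Timp2, which takes part in the activation of the Mmp2 proenzyme as well as in its inhibition, differed from db/+ by 0.11 (95% interval -0.30 to 0.53) in treated and 0.09 (-0.30 to 0.48) in untreated db/db hearts.

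Rosiglitazone against no drug in db/db hearts left the 9 members other than Mmp3 with log2 differences between -0.24 for Mmp2 and 0.50 for Mmp13. Each of these genes had an interval that included 0. The widest was that of Mmp13, -0.45 to 1.44, so a rise or a fall of that gene was not resolved. For Timp4 it was -0.56 to 0.46, for Mmp15 -0.35 to 0.22 and for Timp3 -0.20 to 0.33.

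**Figure D4:**
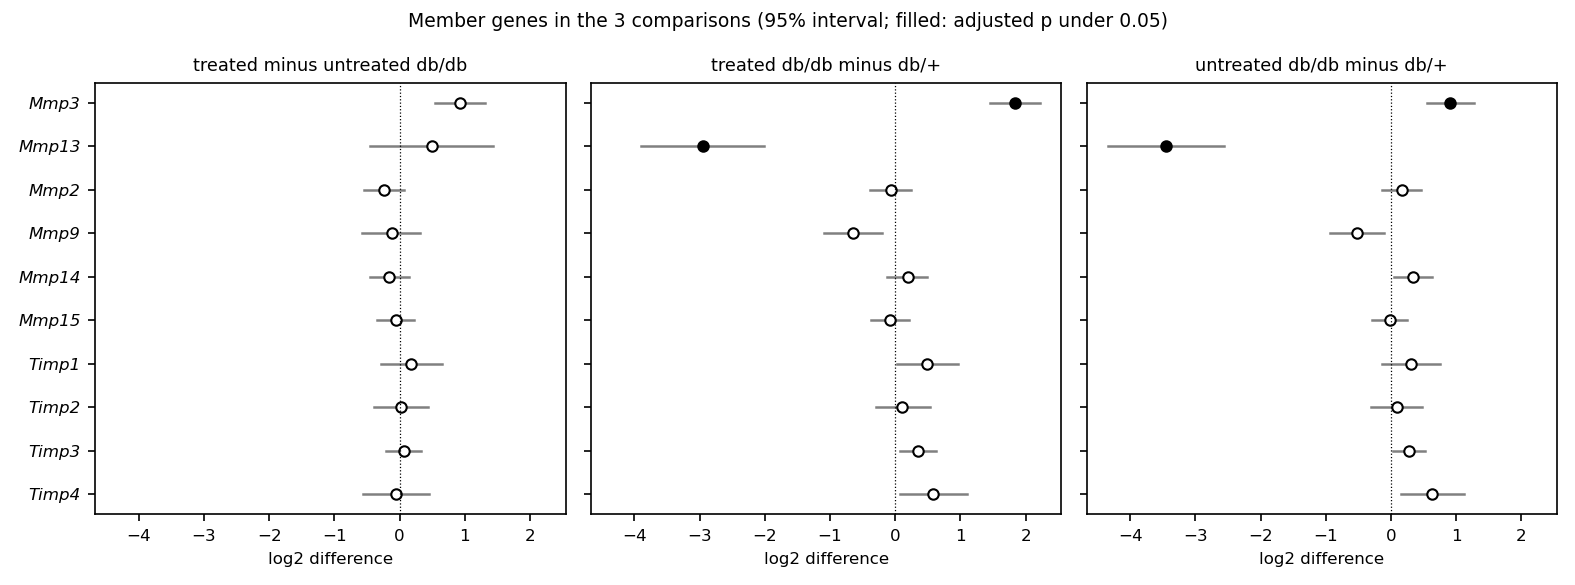
Log2 difference (x axis) with its 95% interval for each member gene (rows) in treated against untreated db/db, treated db/db against db/+ and untreated db/db against db/+ hearts; filled points have an adjusted p under 0.05. Mmp3 and Mmp13 are filled in both comparisons with db/+, and no gene is filled between treated and untreated db/db hearts, where Mmp3 lies at 0.93.

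The other metalloproteinases, 15 on the array of which 8 were tested, gave 1 rise in treated and 2 in untreated db/db against db/+ hearts, namely Mmp8 in both and in untreated db/db hearts also the membrane-type Mmp17 (log2 difference 0.47, adjusted p = 0.049; 0.24 and adjusted p = 0.29 in treated). Among the related ADAM and ADAMTS proteases, 17 were tested, of which 6 rose in treated db/db hearts, and 4 rose and 1 fell in untreated db/db hearts. Their median log2 difference was 0.41 in treated and 0.30 in untreated db/db hearts, where the median of all probes was 0.01 in each. Of all tested probes 4.49% rose and 4.21% fell in treated db/db against db/+ hearts. In untreated db/db hearts 4.37% rose and 3.39% fell. These shares are the background for the list counts here and in the next paragraph. Adamts1, which cuts proteoglycans, ran between -0.72 and -0.36 in treated, -0.79 and 0.19 in untreated db/db and -1.70 and -1.33 in db/+ hearts, and rose by 1.0 (adjusted p = 0.0037) and 1.13 (adjusted p = 0.0012). Adamts15 rose by 0.71 (adjusted p = 0.0054) in treated and 0.76 (adjusted p = 0.0025) in untreated db/db hearts. Adamts3, which trims procollagen, rose by 1.01 (adjusted p = 0.0056) and 0.70 (adjusted p = 0.026), and Adam9 by 0.50 (adjusted p = 0.0061) in treated hearts, with a value of 0.19 (adjusted p = 0.17) in untreated db/db hearts. The aggrecanase Adamts4, the 1 that fell and named for that after its values were seen, fell by 1.29 in untreated db/db hearts (adjusted p = 0.046) and had a difference of -1.19 in treated hearts (adjusted p = 0.071).

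Among the activators and other inhibitors, the convertase Furin (0.61, adjusted p = 0.024) and the protease inhibitor Serpine2 (0.87, adjusted p = 0.017) rose in treated db/db against db/+ hearts. Reck, a membrane inhibitor of metalloproteinases, differed by 0.09 (adjusted p = 0.71) and 0.17 (adjusted p = 0.44). Of 27 matrix substrates tested, 1 rose in treated hearts, the proteoglycan Vcan (0.95, adjusted p = 0.025), and 1 fell in untreated db/db hearts, the collagen Col6a3 (-0.71, adjusted p = 0.034), with medians of -0.05 and -0.03. Of 12 tested cytokines and growth factors, listed as regulators of metalloproteinases and not all as inducers of each, 2 rose and 1 fell in treated, and 1 rose and 2 fell in untreated db/db hearts. Fgf2 rose by 1.76 (adjusted p = 0.016) and 1.30 (adjusted p = 0.047), from a signal above background on 2 of 5 db/+ arrays, so that it was tested through the db/db arrays alone. Egf rose by 1.53 (adjusted p = 0.021) in treated hearts, Tgfb3 fell by 0.34 (adjusted p = 0.043) and 0.36 (adjusted p = 0.030), and Tgfb2 fell by 0.42 in untreated db/db hearts (adjusted p = 0.018). Il1b differed from db/+ by -0.78 (adjusted p = 0.10) and -0.71 (adjusted p = 0.12), and Tnf by -0.50 (adjusted p = 0.17) and -0.40 (adjusted p = 0.26). None of these lists had a gene that passed between treated and untreated db/db hearts.

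Log2 ratios over the 14 samples were compared with those of Mmp3 for 25870 probes with a gene name and a value in each. Names that are only locus, transcript or clone identifiers were then passed over, here and for Mmp13 below. The closest of the remaining genes were Lcn2 (Pearson r 0.959), Lifr (0.952), a probe named Nudt6 (0.951), Il17re (0.945), Gsdm1 (0.940) and Trem2 (0.939). The samples are 3 groups that differ in Mmp3, so these correlations describe mainly the group levels. Lcn2, which binds bacterial siderophores, ran between 0.09 and 1.57 in treated, -0.82 and 0.97 in untreated db/db and -2.55 and -1.57 in db/+ hearts. Il17re, an interleukin 17 receptor subunit, ran between 1.71 and 2.65 in treated, 0.02 and 1.60 in untreated db/db and -0.98 and 0.07 in db/+ hearts. The same measure for Mmp13, run after its values were seen, gave Spic (0.957), a macrophage transcription factor, the chemokine Xcl1 (0.956), Timeless (0.956), Lst1 (0.950) and the interferon-induced Ifit2 (0.947) and Oas1a (0.947). Xcl1 was not well above background on any db/db array.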

How the data were processed

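Per the labels, total RNA of each heart was amplified, labelled with Cy5 and compared with Cy3-labelled Universal Mouse reference RNA on an Agilent array. The methods name a human array, whereas the deposited files hold mouse genes and mm8 positions, which are used here. The authors used Agilent Feature Extraction 9.5.1.1 with background subtraction and LOWESS dye normalization, and deposited for each spot a log10 ratio of red over green, the processed, mean and background intensity of both channels, and a table with the same log10 ratios. Here ratios were turned to log2, control spots and outlier-marked spots (0.304 to 2.79% per array) were left out, and spots of a probe were averaged. A probe was tested if any group had 4 or more arrays on which its heart signal was well above background, and this was done with limma 3.58.1 (lmFit and eBayes, R 4.3.3), with 3 groups, 14 samples and 11 residual degrees of freedom, and Benjamini-Hochberg adjustment over 27593 probes. A gene stands by its probe with the brightest mean heart signal. Other named genes are up to 4 per list that passed, by their smallest adjusted p in any comparison, with Mmp8 always named, beside a few that did not pass. Also named are the 6 genes most correlated with Mmp3, with locus, transcript and clone identifiers passed over. Some results of the lists of activators and other inhibitors and of lymphocyte markers are not reported here. The members and gene lists were chosen with earlier results of these data known. The labels give 5 separate hearts per group. The number of arrays limits the precision. The procedure was tested on simulated data. Alternatives tried were other normalizations, filters, slide and replicate blocks, SAM (the study's test, here with at most 100 regroupings), array weights and leaving out each array.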

Additional observations from a re-analysis of the deposited data

Results flagged for a closer look

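In 39 sets of 1 probe in 1 group, 5 had a highest or lowest sample further from the rest than Dixon's 95% criterion allows, where chance marks about 5% of sets. Mmp14 (A_51_P216303) was low in untreated db/db replicate 2, at -2.45, and high in db/+ replicate 1, at -2.15, with db/+ replicate 2 left out. Mmp2 was low in treated db/db replicate 5, at -0.60. Timp3 was high in the averaged treated replicates 3 and 4, at 0.52, and Timp4 was high in treated replicate 5, at 5.08. None of these sets belongs to Mmp3 or Mmp13.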

How the results depend on the processing

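The counts of 2, 2 and 0 changed member genes (untreated db/db and then treated db/db, each against db/+, and treated against untreated) ran between 2 and 3, 2 and 3, and 0 and 0 with each array left out, and Mmp3 and Mmp13 passed against db/+ each time. The added gene was Mmp14 without db/+ replicate 1, and Mmp9 without db/+ replicate 5 or treated replicate 2. With slide as a fixed block the first 2 counts were 0 and 0, where 34 and 4 of all probes passed against 2141 and 2401; at an unadjusted p under 0.05 Mmp3 and Mmp13 remained in each. This fit rests on the few arrays that share a slide. With slide as a random block they were 4 and 4, but the correlation within slides was negative (-0.114). With treated replicates 3 and 4 as separate samples the second count was 4, with the heart channel alone the second was 4 and the third 1 (Mmp3), and with the stricter filter, which drops Mmp13, the first was 1. After normexp and loess the counts were 3 (Mmp9, Mmp13, Timp4), 2 (Mmp13, Timp4) and 0, without Mmp3. SAM, run here with treated replicates 3 and 4 averaged, called Mmp3 and Mmp13 against db/+ and no member between treated and untreated db/db. The paper's own SAM, with 5 hearts per group, lists Mmp3 as higher in treated than in untreated db/db hearts. Its methods also list a real-time PCR assay for Mmp3. The paper reports that all genes selected for PCR were higher in treated than in untreated db/db hearts. Its text does not name each of those genes, and no PCR data were available here. With outlier-marked spots kept, an alternative chosen after seeing the data, the counts were again 2, 2 and 0. Over all probes the first count was also 924 with only the groups compared and 5033 with slide as a random block, and the second 5127 with that block, 3753 with treated replicates 3 and 4 separate and 1475 after normexp. Leaving out 1 array gave 1185 to 2743 and 1093 to 2885, lowest without db/+ replicate 4 and without treated replicate 5.

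The replicate block, with the label numbers as a block and treated replicates 3 and 4 separate, gave 2, 3 and 0. Same-numbered samples did not deviate together (correlations -0.19 to 0.047 over 15 pairs, 0 of 15 samples closest to its own number), so the numbers only name samples.

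Signs turned for differences that did not pass and were small in the main fit. After normexp and loess these were Mmp15 (1.26 in untreated, 1.02 in treated db/db against db/+), Mmp2 in treated db/db (0.03), and between treated and untreated db/db Mmp9 (0.14), Timp3 (-0.03) and Timp2 (-0.02). Of these Mmp15 moved furthest, from -0.02 in untreated and -0.08 in treated db/db in the main fit. After that correction the SD of all log2 ratios was 0.626 to 0.653 on db/+ replicates 1 and 3 against 0.981 to 1.21 on the other 13 arrays, and the cause was not tested. Between treated and untreated db/db, Timp4 was 0.06 with the heart channel alone, 0.15 with slide fixed and 0.01 with array weights, Timp3 -0.01 with slide fixed, and Timp2 -0.05 with the replicate block and with replicates 3 and 4 separate. Leaving out arrays gave ranges of -0.09 to 0.06 for Mmp15 and -0.04 to 0.18 for Timp2 in untreated db/db, -0.16 to 0.02 for Mmp2 in treated db/db, and between the db/db groups -0.14 to 0.02 for Mmp15, -0.30 to 0.45 for Mmp8 (0.61 without treated replicates 3 and 4 together), -0.23 to 0.11 for Timp4, -0.05 to 0.12 for Timp3 and -0.07 to 0.16 for Timp2.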
